A study of Mus musculus with 125 samples.

Results

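Open chromatin was compared between mouse B-ALL cells, a leukaemia of B cell precursors, kept with natural killer (NK) cells for 6 days and the same cells kept alone, in cell lines A and B of experiment 9.7. The libraries were taken by their labels, and all 12 with these lines, this experiment, this day and either arm were used, of 125 libraries in the series. They formed 4 groups of 3: line A alone, line A + NK, line B alone and line B + NK. Both lines came from a single WT B-ALL line of C57BL/6JRj bone marrow transformed with BCR/ABLp185, the fusion kinase of Philadelphia chromosome-positive leukaemia, and both carried a lentiviral GFP barcode library, so A and B are not independent leukaemias. The NK cells were primary mouse spleen cells activated with IL-2, which was also present in the medium of B-ALL alone, and the labels do not give the genotype of the NK cells used for these libraries. GFP+ leukaemia cells were sorted before ATAC-seq, an assay in which a transposase cuts and tags accessible DNA. Levels are in CPM, which relate the counts of a consensus peak to the effective size of its library. Per the methods, the 3 libraries of a group are biological replicates, and the labels only number them. The p-values thus rest on the spread between replicates of the same line and not between leukaemias. In bulk libraries, a change in the share of cells with an open region and a change in the signal per cell cannot be told apart.

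NK cells kill target cells with perforin and granzymes and through death receptor ligands, and secrete interferon-γ (IFN-γ). IFN-γ binds its receptor on the target cell, and its target genes are switched on through GAS elements and, by way of the factor IRF1, through the interferon-stimulated response element (ISRE). The classical targets are the immunity-related GTPases (IRGs) and guanylate-binding proteins (GBPs), which attack intracellular pathogens, together with antiviral effectors, antigen presentation genes and chemokines.

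With NK cells, more peaks were called as gained than as lost. Of 42009 peaks tested, 3484 were gained (8.29% of those tested) and 1052 were lost (2.5%), where a call needed an adjusted p (edgeR quasi-likelihood test, Benjamini-Hochberg) of at most 0.05 and a log2 fold change of at least 0.58 in size, which is 1.49-fold. Calls in either direction made up 10.8% of peaks. By adjusted p alone, without the fold threshold, 5026 peaks were higher with NK cells and 3692 lower, so the surplus of gains was smaller. Gains of at least 2-fold numbered 1452 and losses 64, and all 201 peaks that changed at least 4-fold were gains. By fold, the largest gains among the named peaks lay nearest Ubd, a ubiquitin-like modifier gene, Gm4951, an IRG gene, Gm8369, of the Ms4a family, the lncRNA genes AC132320.1 and Gm30459, and Iigp1, another IRG gene. The tested promoter peaks of Irf1 and the MHC class I genes were not called. Beside 2.36% gained and 1.61% lost over all promoter peaks, nothing is read from that count.

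To show the sequence at such sites, the ISRE-type motif was taken as GAAANNGAAA or, on the other strand, TTTCNNTTTC, and searched in the central 500 bases of each peak. It was found in 7.92% of all tested peaks with sequence. The windows printed here, read on the + strand of GRCm38 with a match in capitals, come from 3 gained peaks and from the uncalled promoter peak of B2m, the light chain of MHC class I.
Gm8369, chr19:11494684-11494773: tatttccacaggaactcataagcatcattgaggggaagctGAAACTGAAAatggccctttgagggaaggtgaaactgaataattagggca
Pcdh19, chrX:132288103-132288192: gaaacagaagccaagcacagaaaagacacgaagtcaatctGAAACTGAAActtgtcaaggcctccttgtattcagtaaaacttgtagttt
Rtp4, chr16:23609805-23609894: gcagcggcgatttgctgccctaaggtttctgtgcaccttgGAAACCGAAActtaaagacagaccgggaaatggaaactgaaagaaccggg
B2m, chr2:122147508-122147597: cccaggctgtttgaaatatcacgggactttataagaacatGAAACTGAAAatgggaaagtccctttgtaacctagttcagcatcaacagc
The same letters, GAAACTGAAA, stood in the Gm8369 peak, whose accessibility rose 17.8-fold, in the Pcdh19 peak, which rose 12.5-fold, and in the B2m peak, at 1.07-fold. Pcdh19, a protocadherin gene, was only the nearest gene, 1399 kb from its peak. The Rtp4 peak held 4 matches in its central 500 bases, of which 1 is in capitals.

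The GAS-type motif was taken as TTCNNNGAA, which reads the same on both strands and was found in 14.5% of tested peaks. It is shown for the gained Serpina3f promoter and the uncalled Irf1 promoter. The third window, from the lost Nfe2l1 peak, carries the letters CCCNNGGGA, a motif of the type bound by the B cell factor EBF1, which was found in 13.5% of tested peaks on either strand.
Serpina3f, chr12:104214383-104214471: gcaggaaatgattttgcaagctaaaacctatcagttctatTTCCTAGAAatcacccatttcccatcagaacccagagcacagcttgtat
Irf1, chr11:53769884-53769972: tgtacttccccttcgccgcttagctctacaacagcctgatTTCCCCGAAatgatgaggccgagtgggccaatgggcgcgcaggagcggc
Nfe2l1, chr11:96822975-96823063: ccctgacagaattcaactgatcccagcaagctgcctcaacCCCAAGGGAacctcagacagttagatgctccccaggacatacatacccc
A match describes these letters only and shows neither binding nor a cause.

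**Figure D1:**
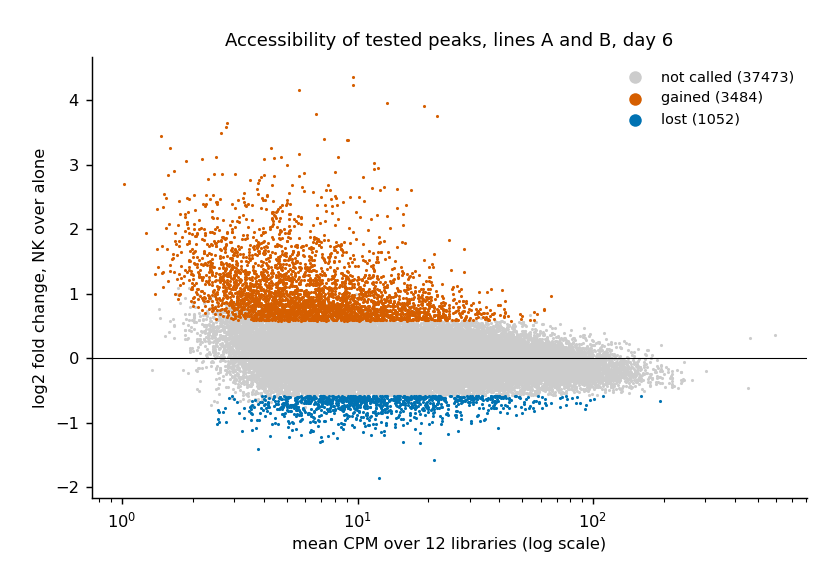
Log2 fold change with NK cells against B-ALL alone (vertical axis) by mean accessibility (horizontal axis, log scale, CPM) for the 42009 tested peaks in lines A and B at day 6. Gained peaks, 3484 in all, extend to a log2 fold change above 4 at low mean accessibility, whereas the 1052 lost peaks reach -1.85.

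Total counts in peaks were 5076793 to 11185437 per library, lowest in line B alone replicate 3, and were 1.14-fold higher with NK cells (exact two-sided permutation within lines, p = 0.315, smallest possible 0.005). The number of broad peaks per library, 37153 to 51163, was 1.17-fold higher with NK cells (exact permutation p = 0.01). The first principal component of the 5000 most variable peaks held 65.0% of the variance and separated the arms, and replicate 1 lay furthest out in all 4 groups. The promoters of 8 defining B cell genes, including Cd79a, Pax5 and Ebf1, were open in every library, with summed levels of 560 to 852 CPM alone and 436 to 645 CPM with NK cells. Of 8 defining NK cell genes 7 had a peak within 3 kb, summing to 52.5 to 65.7 CPM alone and 44.7 to 60.2 CPM with NK cells. Gzma and Gzmb had a broad peak in 0 of 12 libraries, whereas Prf1 and Nkg7 each had one in 0 of 6 libraries alone and 3 of 6 with NK cells. Eomes and Tbx21 had one in 6 of 6 libraries of each arm. Their medians were 19.7 and 17.1 CPM alone and 19.9 and 12.7 CPM with NK cells, a large part of the sums. Klrb1c had one in 1 of 6 libraries of each arm. Summed signals of the defining T cell genes were 3.12 to 8.72 CPM alone and 2.75 to 6.72 CPM with NK cells, and those of the defining myeloid genes 10.9 to 20.8 CPM and 13.2 to 17.2 CPM.

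Gained peaks were mainly distal. A transcription start site (TSS) lay within 3 kb of 9.79% of gained, 22.1% of lost and 34.4% of all tested peaks. Among 27565 distal peaks, 3143 were gained (11.4%) and 820 lost (2.97%), and among 14444 promoter peaks 341 were gained (2.36%) and 232 lost (1.61%). The median gained peak lay 25.2 kb from a TSS and had 6.06 CPM, against 9.24 kb and 14.03 CPM over all tested peaks. Introns held 52.7% and intergenic sequence 43.3% of gains.

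The 3 NK libraries lay above the 3 alone libraries in each line at 3309 peaks (7.88%) and below them in each line at 2155 (5.13%). Such separation held for 70.7% of gains and 69.8% of losses, against 13.01% of all tested peaks. All 6 NK libraries lay on 1 side of all 6 alone libraries at 3902 tested peaks, among them 2057 gains and 538 losses. The calls came from these same libraries, which favours separation among called peaks, so these shares are a description. The largest gains and losses named below were chosen among called peaks separated within each line, so their lack of overlap follows in part from that choice. At 404 gains a broad peak was present in all 6 NK libraries and in none of the 6 alone libraries. In all, 2240 of the 3484 gains (64.3%) entered the test only through an arm with NK cells, since neither alone group had a broad peak in all 3 libraries, and 300 of the 1052 losses (28.5%) only through B-ALL alone. Such peaks passed only through the arm in which they were high, so their counts, and the list medians that include them, are a description. With a broad peak required in every library there were 885 gains and 319 losses, and with none required 6049 and 2007. At 3 losses a broad peak was present in all alone and in no NK libraries. Among the gains described next, those at Ubd, Gm4951, Gm4841, F830016B08Rik, Iigp1, Serpina3f, Mx1, Phf11a, Rtp4, Ifi211, Batf2, Cd86, Ido1, Ccl12, Il2ra and Mpeg1, and those of the Ms4a family, entered through NK cells only. That held for 5 of 7 gained IRG promoter peaks, 0 of 5 of the GBPs, 3 of 15 antiviral, 1 of 4 Ifi200, 4 of 4 Ms4a and 2 of 2 serpin promoter peaks, and for 160 of 341 gained promoter peaks in all (46.9%).

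The largest gain was an intergenic peak 8.65 kb from Ubd (chr17:37184494-37185997), which encodes a ubiquitin-like protein that targets proteins to the proteasome. Line A had 0.816, 0.892 and 1.37 CPM alone and 29.9, 19.4 and 20.4 CPM with NK cells. Line B had 0.710, 1.04 and 0.264 CPM alone and 15.9, 13.5 and 10.96 CPM with NK cells. Every NK library thus lay far above every library of B-ALL alone, and accessibility rose 20.5-fold (log2 4.36, SE 0.22, adjusted p = 2.03e-09).

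The IRG genes lay in a run of gains. From Gm4951 through Gm4841 and F830016B08Rik to Iigp1 (chr18:60201590-60441463), 14 of 14 tested peaks were gained, and their median log2 fold change was 3.17. The ends of such runs were set by gained peaks, which raises the share gained within them. These genes encode interferon-inducible GTPases that load onto the vacuoles of intracellular parasites. The Gm4951 promoter peak had 1.22 to 3.97 CPM alone (median 2.266) and 26.3 to 46.6 CPM with NK cells (median 36.7), and the 2 arms did not overlap (log2 3.91, SE 0.23, adjusted p = 8.61e-09). A peak 0.848 kb from the Iigp1 TSS had 1.09 to 5.65 CPM alone (median 2.88) and 28.5 to 53.3 CPM with NK cells (median 39.1; log2 3.76, SE 0.22). Over the IRG list, 7 of 12 promoter peaks were gained, none was lost, and the median log2 fold change was 0.97, against -0.04 over all promoter peaks. Tgtp1 and Tgtp2 on chromosome 11 gained less, by log2 1.058 and 1.01, from means of 26.5 ± 3.83 and 13.3 ± 2.42 CPM alone (SD, n = 6). Tgtp1 and Tgtp2, like several IRG, GBP and Ms4a genes, are close paralogues, and reads from near-identical copies may have been assigned to either.

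A similar run lay on chromosome 5, where 15 of 15 tested peaks from Gbp4 to Gbp6 (chr5:105138284-105356953) were gained with a median log2 fold change of 1.596. GBPs are interferon-induced GTPases that coat pathogens and trigger inflammasomes. The Gbp6 promoter had 3.40 to 6.98 CPM alone (median 5.57) and 23.1 to 32.2 CPM with NK cells (median 26.8), without overlap (log2 2.38, SE 0.15, adjusted p = 1.55e-08). Gbp10 rose by log2 2.24 and Gbp4 by 0.82, and on chromosome 3 Gbp2 rose by 0.74. In all, 5 of 9 GBP promoter peaks were gained and none was lost (median 0.74). At Gbp2 the libraries spanned 36.5 to 54.2 CPM alone and 66.9 to 96.9 CPM with NK cells.

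**Figure D2:**
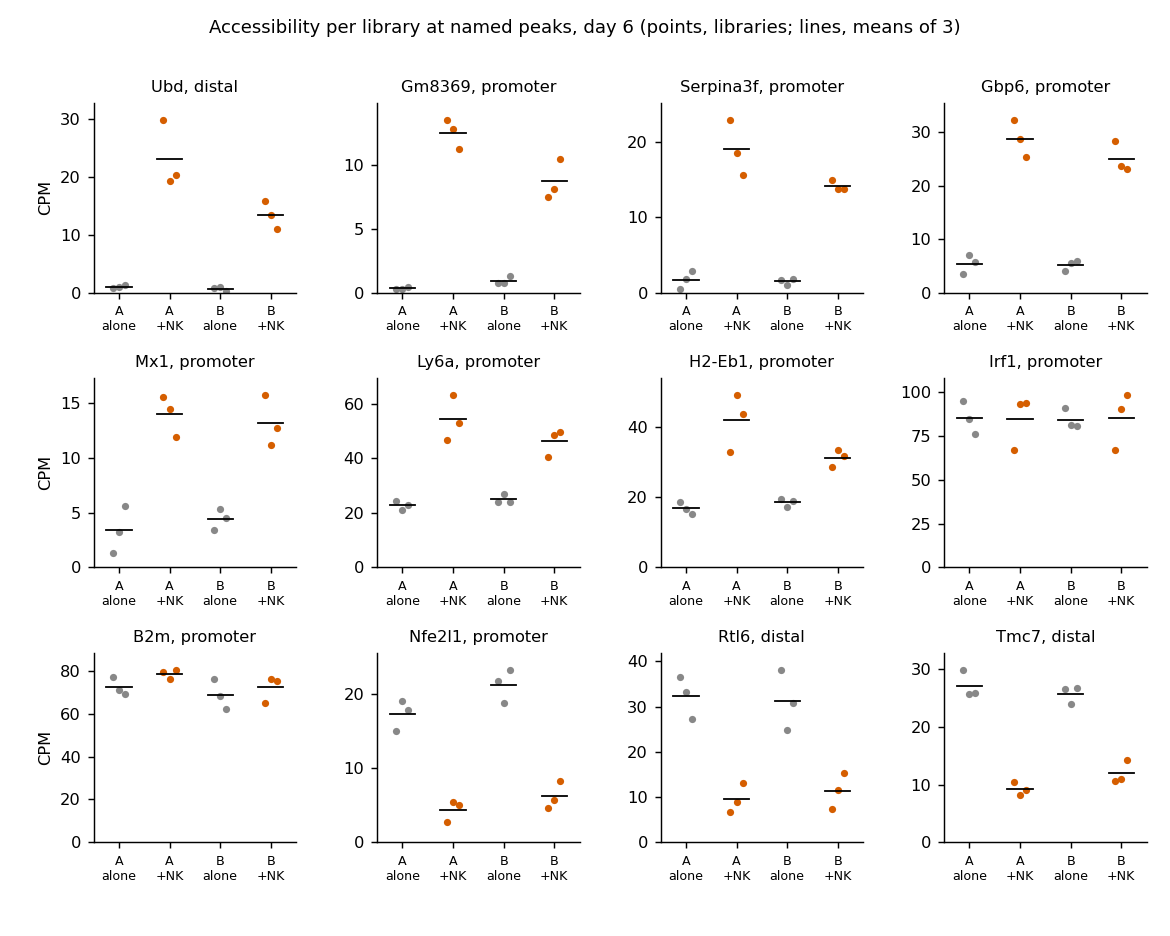
Accessibility (vertical axes, CPM) at 12 named peaks in each of the 12 libraries, by line and arm, with points for libraries and lines for the means of 3. The NK libraries (orange) sit above all libraries of B-ALL alone (grey) at Ubd, Gbp6, Mx1 and the other gained peaks, overlap them at Irf1 and B2m, and sit below them at Nfe2l1, Rtl6 and Tmc7.

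Among 67 promoter peaks of antiviral interferon-stimulated genes, 15 were gained, none was lost and the median was 0.34. Mx1, a GTPase that blocks influenza virus, had 1.36 to 5.65 CPM alone and 11.1 to 15.7 CPM with NK cells (log2 1.81, SE 0.22, adjusted p = 1.38e-05). The PHD finger gene Phf11a rose by 1.73, the galectin ligand Lgals3bp by 1.46, the receptor transporter Rtp4 by 1.43 and Ifi27 by 1.26 on the log2 scale, and in each the arms did not overlap. Of 10 promoter peaks of the Ifi200 family, whose members sense DNA, 4 were gained (median 0.51), led by Ifi214 with 16.1 ± 2.66 CPM alone and 34.4 ± 8.28 CPM with NK cells (SD, n = 6). The Ifi211 call rested on less, since its libraries overlapped, at 1.63 to 4.76 CPM alone and 4.12 to 9.95 CPM with NK cells.

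Outside the interferon lists, the Ms4a family, membrane proteins related to CD20, had 4 of 6 promoter peaks gained with a median of 2.09. The Gm8369 peak, in an intron 2.72 kb from the TSS, had 0.272 to 1.32 CPM alone (median 0.584) and 7.49 to 13.5 CPM with NK cells (median 10.8; log2 4.15, SE 0.26, adjusted p = 1.52e-08). BE692007 rose by log2 3.10, Ms4a6b by 2.62 and Ms4a6d by 1.56. The Serpina3f promoter, of a secreted protease inhibitor, had 0.408 to 2.90 CPM alone and 13.7 to 22.9 CPM with NK cells (log2 3.39, SE 0.24, adjusted p = 3.42e-08), and 2 of 9 serpin promoter peaks were gained (median 0.42). Of 8 promoter peaks in the Ly6 and PLAAT list 2 were gained (median 0.07). These were the stem cell antigen gene Ly6a, at 20.95 to 27.0 CPM alone and 40.3 to 63.1 CPM with NK cells (log2 1.07, SE 0.11), and the phospholipase gene Pla2g16 (0.68, SE 0.15), whose arms overlapped. Among 9 chemokine promoter peaks only that of the monocyte attractant Ccl12 was gained (log2 1.596, SE 0.19; list median -0.04). Beside 2.36% gained over all promoter peaks, nothing is read about the chemokine list from that single peak.

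Among 25 promoter peaks of interferon signalling genes 1 was gained, that of the AP-1-like factor Batf2 (2.98 to 5.05 CPM alone, 5.62 to 12.6 CPM with NK cells; log2 1.13, SE 0.19, adjusted p = 0.000385), and the median was 0.01. Over all promoter peaks 2.36% were gained, and nothing is read from a single peak. The Irf1 promoter had 84.7 ± 7.06 CPM alone and 84.9 ± 14.1 CPM with NK cells (SD, n = 6; log2 0.00, SE 0.11, adjusted p = 0.986).

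None of 25 MHC class I presentation promoter peaks and none of 20 distal peaks assigned to these genes was called, beside 2.36% gained and 1.61% lost over all promoter peaks and 11.4% and 2.97% over all distal peaks. In lists of this size nothing is read from these counts. The promoter median was -0.01. The B2m promoter had 62.4 to 77.1 CPM alone and 65.2 to 80.3 CPM with NK cells (log2 0.09, SE 0.09, adjusted p = 0.464). Tap1, the peptide transporter, gave 0.06 (SE 0.12) and the heavy chain gene H2-K1 gave -0.07 (SE 0.10). Of 16 MHC class II promoter peaks 2 were gained (median 0.09), H2-Eb1 at 17.6 ± 1.55 CPM alone and 36.4 ± 7.95 CPM with NK cells (SD, n = 6; log2 1.04, SE 0.13) and H2-Aa at the threshold (0.58, SE 0.13). Their transactivator Ciita had 40.2 ± 7.52 and 58.8 ± 10.2 CPM (log2 0.54, SE 0.13, adjusted p = 0.00658) and was just under the fold threshold.

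**Figure D3:**
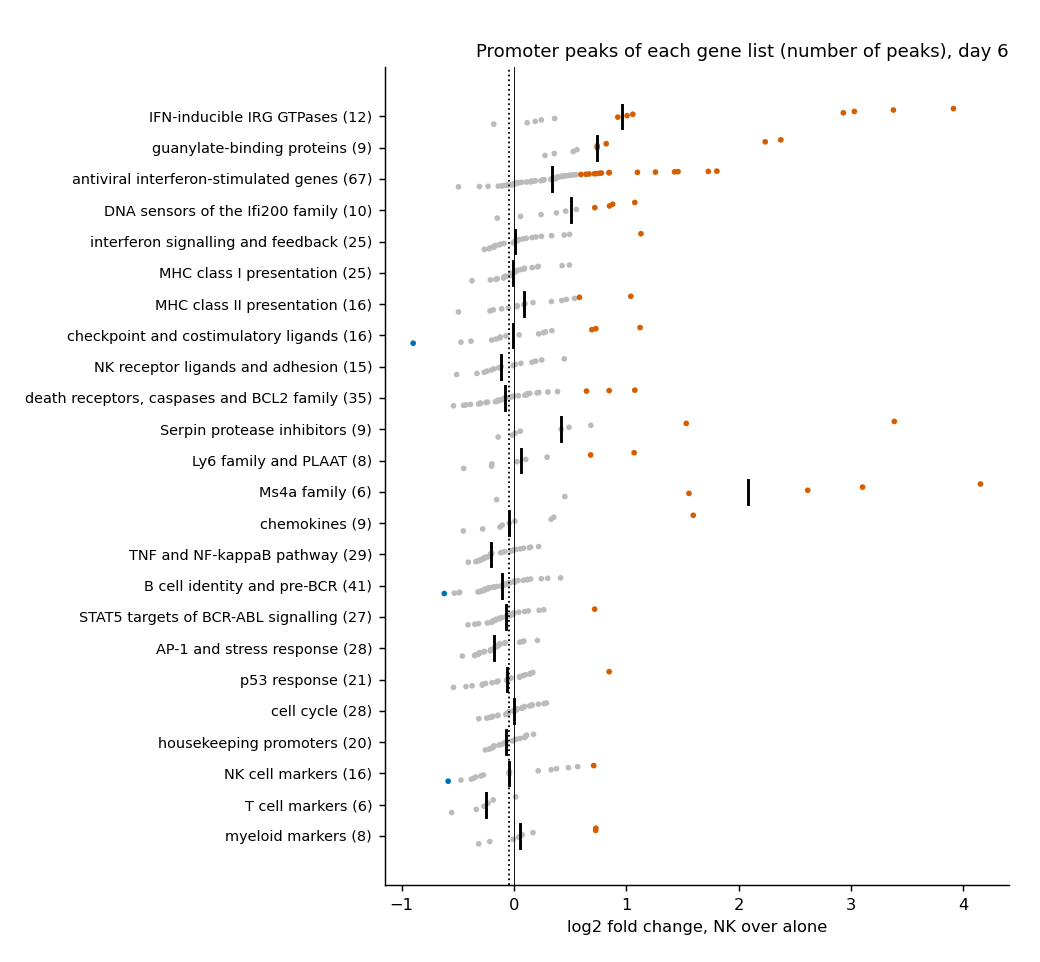
Log2 fold change with NK cells (horizontal axis) of each promoter peak of 24 gene lists, with gained peaks in orange, lost peaks in blue, list medians as bars and the median of all promoter peaks (-0.04) as a dotted line. The Ms4a, IRG and GBP lists have the highest medians (2.09, 0.97 and 0.74), whereas MHC class I and housekeeping promoters lie about 0. Of the gained peaks, 4 of 4 Ms4a and 5 of 7 IRG peaks entered the test only through NK cells, which raises those medians.

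Genes through which NK cells recognise or kill targets are read here against 2.36% gained and 1.61% lost over all promoter peaks. None of 15 promoter peaks of NK receptor ligands and adhesion genes was called (median -0.11), a count from which at that background nothing is read. Of 28 distal peaks of these genes 5 were gained and 1 was lost, beside 11.4% and 2.97% over all distal peaks. Among 35 promoter peaks of death receptor, caspase and BCL2 family genes 3 were gained (median -0.08): the death receptor Fas, with 11.7 to 15.3 CPM alone and 21.3 to 29.9 CPM with NK cells (log2 0.85, SE 0.12), the inflammatory caspase Casp1 (1.08, SE 0.22) and the necroptosis effector Mlkl (0.65, SE 0.11). Of 16 checkpoint and costimulatory promoter peaks 3 were gained and 1 was lost (median -0.01). The gains were Cd86, a ligand of CD28 (log2 1.12, SE 0.20), Tnfsf10, which encodes the death ligand TRAIL (0.73, SE 0.15), and Ido1, a tryptophan-degrading enzyme (0.69, SE 0.18), each with overlapping arms. Cd274, which encodes PD-L1, had 20.96 ± 3.27 CPM alone and 26.7 ± 4.43 CPM with NK cells (SD, n = 6; log2 0.34, SE 0.13, adjusted p = 0.0687). The loss was Hvcn1, a proton channel gene placed in that list, at 34.4 to 49.3 CPM alone and 16.6 to 26.6 CPM with NK cells (log2 -0.90, SE 0.12).

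None of 29 TNF and NF-κB promoter peaks (median -0.21), 28 AP-1 and stress peaks (-0.18), 28 cell cycle peaks (0.00), 20 housekeeping peaks (-0.07) or 6 T cell marker peaks (-0.25) was called. Beside 2.36% gained and 1.61% lost over all promoter peaks, nothing is read from counts of 0 or 1 in lists of this size, here or below. The Ctla4 promoter peak, at 1.68 to 2.86 CPM alone and 5.06 to 7.89 CPM with NK cells, was not tested, since no group had a broad peak in all 3 libraries. The STAT5 list had 1 gain among 27 peaks, the IL-2 receptor gene Il2ra (log2 0.72, SE 0.13), and the p53 list 1 among 21, again Fas. Of 41 B cell identity promoter peaks 1 was lost, that of the ETS factor gene Spib (21.7 to 29.5 CPM alone, 11.4 to 21.3 CPM with NK cells; log2 -0.62, SE 0.14; list median -0.11), and of 108 distal peaks 6 were gained and 7 lost, beside 11.4% and 2.97% over all distal peaks. In the NK marker list Fcgr3 was gained (0.71, SE 0.16) and Zfp683 was lost (-0.58, SE 0.13) among 16, and in the myeloid list Lyz2 (0.73, SE 0.17) and Mpeg1 (0.73, SE 0.16) were gained among 8. The Mpeg1 peak had a broad peak in 0 of 6 alone and 6 of 6 NK libraries and entered the test only through NK cells. Over all 30 NK marker genes with a peak the summed level was 300 to 321 CPM alone and 270 to 281 CPM with NK cells, and over 18 myeloid genes 101 to 132 and 113 to 134 CPM. Their part in the results was not tested.

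Losses were smaller than gains. The largest was an intronic peak 0.886 kb from a TSS of Nfe2l1 (chr11:96822439-96823816), a transcription factor of the proteasome recovery response. It had 15.1, 19.0 and 17.9 CPM in line A alone and 21.7, 18.9 and 23.3 CPM in line B alone. With NK cells the values were 2.75, 5.48 and 5.04 CPM in line A and 4.68, 5.68 and 8.25 CPM in line B. The arms did not overlap, and the level fell by 1.85 on the log2 scale (SE 0.16, adjusted p = 4.27e-07). Distal peaks nearest Rtl6 (-1.59), the phosphodiesterase gene Pde10a (-1.41), Tmc7 (-1.32), Slc22a20 (-1.30) and the collagen chaperone gene Serpinh1 (-1.30) followed, each without overlap of the arms. Separation within each line was part of the rule by which these losses were named. Promoter losses after Nfe2l1 were close to 2-fold, including Flrt1 (-1.01), the Wnt ligand gene Wnt10a (-1.01) and the SRC-family kinase gene Fgr (-1.01).

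When gained peaks under 50 kb apart were joined, 3484 gains formed 2589 runs, of which 572 held at least 2 gains (1467 peaks) and 27 at least 5. Tested peaks are themselves unevenly spaced, and no comparison with their spacing was made. Besides the IRG and GBP runs, 11 of 11 tested peaks were gained around the lncRNA gene Gm30567 on chromosome 16 (chr16:9008793-9177150). At Egfr, the epidermal growth factor receptor gene, 7 of 8 were gained, at Dthd1 7 of 8, and at Plscr1 and Plscr2, scramblase genes of which the first is interferon-inducible, 6 of 8.

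The ISRE-type motif was found in 24.7% of gained peaks (858 of 3480 with sequence) and 2.66% of lost peaks. Its share was 18.2% in gains under 2-fold, 31.6% in gains of 2- to 4-fold and 46.8% in gains of at least 4-fold. Of peaks with the motif 25.8% were gained, against 6.78% of those without it. The GAS-type motif differed less, at 20.98% of gained and 12.5% of lost peaks. EBF-type letters were found in 8.53% of gained and 19.8% of lost peaks. Only the ISRE-type shares were split by GC content, which differed between gained and lost peaks, as given next.

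Base composition moved with the direction of change. Median GC was 43.4% in gained, 53% in lost and 50% in tested peaks. Over 5 bins of about equal size, from the lowest to the highest GC content, the gained share was 22.3%, 11.4%, 5.33%, 1.96% and 0.252%. Within those bins, peaks with and without the ISRE-type motif were gained at 39.98% and 19.4%, 28.4% and 9.40%, 16.4% and 4.45%, 6.97% and 1.69%, and 0.452% and 0.247%. The share was thus higher with the motif in each bin, by a margin that was small in the last. Mean GC over the counts of a library was 54.9% to 56.3% alone and 55.1% to 55.5% with NK cells, and with an offset for GC content fitted in each library 2611 peaks were gained and 1058 lost.

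**Figure D4:**
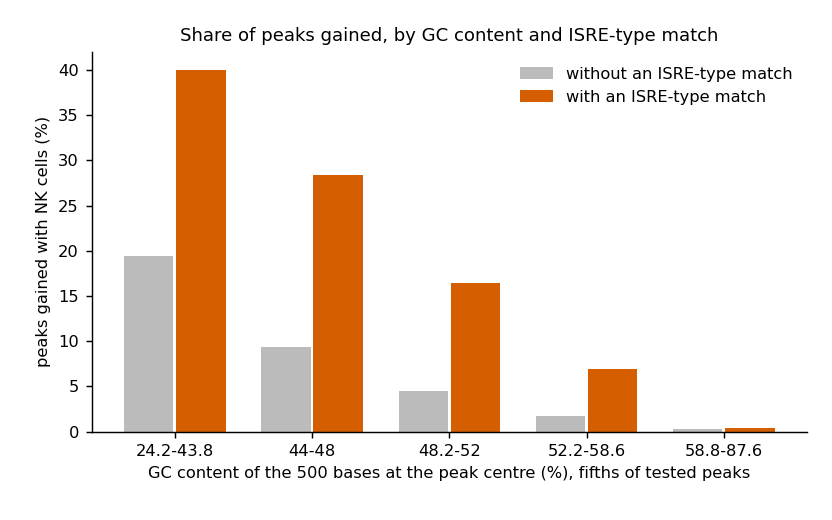
Share of tested peaks gained with NK cells (percent) by bin of GC content, for peaks with and without the ISRE-type motif in the central 500 bases. The share falls from the lowest to the highest GC bin in both, from 39.98% with and 19.4% without the motif.

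All 3484 gains and all 1052 losses had the same sign in lines A and B. They were called over both lines together in these same libraries, which favours equal signs, so this count is a description. Median log2 fold changes were 1.05 in A and 0.79 in B for gains and -0.77 and -0.63 for losses. No peak was called for a difference between the lines (0% of 42009 by edgeR, 0 by DESeq2), and 768 had an unadjusted p under 0.05, which does not show that the lines respond alike. Tested by itself, line A gave 2497 gains and 758 losses and line B 977 and 219.

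Day 4 libraries of lines A and B, 24 from other experiments, and day 6 libraries of lines C and D, 12 from a second parental line, shared no sample with the libraries above. In the day 4 libraries 3076 of 44180 peaks were higher with NK cells (6.96%) and 465 lower (1.05%). By adjusted p alone 9075 were higher and 10089 lower in the day 4 libraries. Of the day 6 gains 3202 were tested there, 98.1% had the same sign, and 1903 were called, which is 54.6% of the day 6 gains and 61.9% of the day 4 gains. Of the losses 930 were tested, 91.0% had the same sign, and 203 were called, 19.3% and 43.7% of the respective lists. In C and D at day 6, 1466 of 46181 peaks were higher (3.17%) and 482 lower (1.04%), and by adjusted p alone 3673 and 3025. There 2698 of the gains were tested, 98.1% had the same sign and 999 were called, 28.7% of the A and B gains and 68.1% of the C and D gains. For losses 901 were tested, 93.7% had the same sign, and 101 were called, 9.601% and 20.95% of the lists. Both fits used the same filter, so a peak low in 1 arm could enter only through the other arm. That favours an equal sign, so these shares are a description. Ubd rose by log2 4.27 at day 4 and 3.05 in C and D, and the Gm4951 promoter by 4.08 and 2.78.

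**Figure D5:**
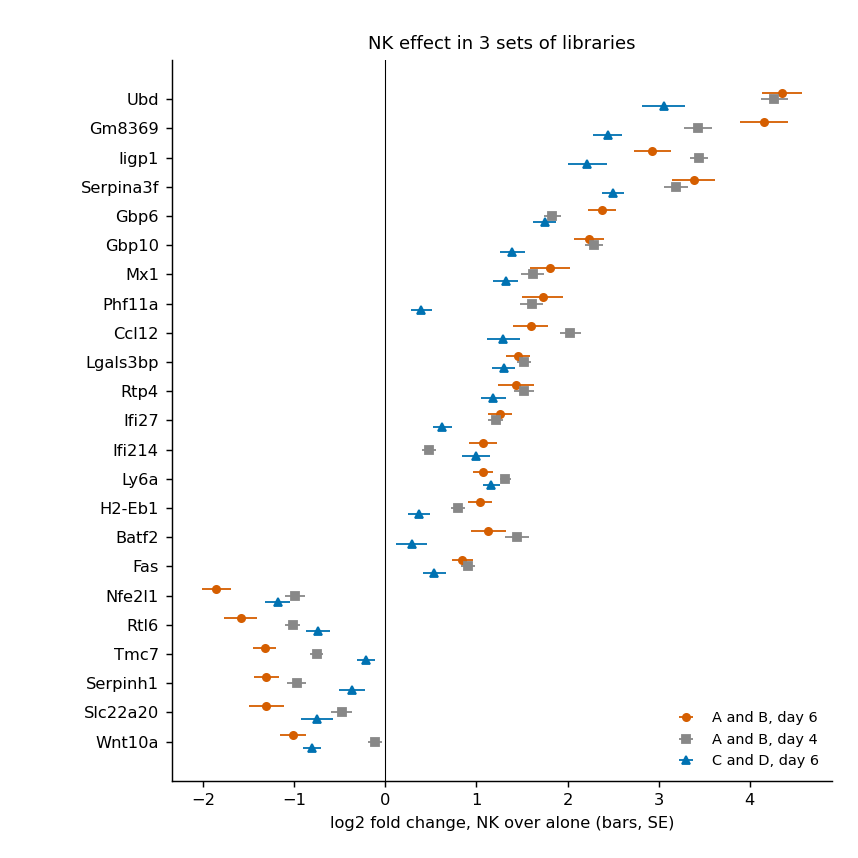
Log2 fold change with NK cells (horizontal axis, bars are SE) at 23 named peaks in lines A and B at day 6, lines A and B at day 4 and lines C and D at day 6. All drawn gains are positive and all drawn losses negative in the 3 sets. Ubd is the highest in each, and Wnt10a at day 4 (-0.11) and Tmc7 in C and D (-0.21) lie nearest to 0 among those drawn. The drawn peaks are a selection of the named ones, made without a set rule. Called peaks not drawn came nearer to 0, such as Cda at day 4 (-0.046) and Zfp683 in C and D (-0.038).

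The effect of NK cells differed between day 6 and day 4 at few peaks. Of 46904 peaks tested for this difference 288 had a higher log2 fold change at day 6 (0.614%) and 486 a lower one (1.04%). Median log2 fold changes of the first were 0.64 at day 6 and -0.13 at day 4, and of the second -0.59 and 0.17. Nfe2l1 was lost further at day 6, by a difference of -0.92, and Wnt10a, with -0.11 at day 4, by -0.90. The largest positive difference, 1.77 (SE 0.43, adjusted p = 0.0146), lay in an intronic peak whose nearest TSS, of Gm43803, was 117 kb away. Its log2 fold change was 0.84 (SE 0.36) at day 6 and -0.94 (SE 0.24) at day 4. The level was low, with day 6 group means of 0.51 to 1.30 CPM. The counts of 288 and 486 depended on single libraries. They were 178 and 199 without line A alone replicate 3, 182 and 282 without line A + NK replicate 1, 401 and 928 without line A alone replicate 1 and 514 and 955 without line B alone replicate 1. Without line B alone replicate 3 there were 291 lower peaks, and without replicate 1 of all 4 groups the counts were 1393 and 2493. Day 6 was sampled in another experiment than day 4, so day and experiment cannot be told apart.

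Between line pairs at day 6, 51 of 49765 peaks had a higher effect in A and B than in C and D (0.102%) and 10 a lower one (0.0201%). With a replicate block 0 and 0 were called, as among promoter peaks fitted apart, with no broad peak required 9 and 1, and with DESeq2 178 and 59, so the peaks named here rest on the fit without a block. An intergenic peak rose by log2 3.08 in A and B and stood at 0.07 in C and D (difference 3.01, SE 0.46, adjusted p = 0.00374). Gm49048 was only its nearest gene, with a TSS 658 kb away. Peaks nearest the sodium-calcium exchanger gene Slc8a1 (2.29), the fatty acid elongase gene Elovl4 (2.33) and Gm49662 (2.33), and the Gm8369 (1.71) and Phf11a (1.34) promoter peaks, also had a positive difference. The peak nearest Tmc7 fell by 1.33 in A and B and stood at -0.22 in C and D (difference -1.11, SE 0.16). The 51 and 10 became 11 and 1 without line A alone replicate 1, 10 and 6 without line A alone replicate 2, 14 and 3 without line A + NK replicate 2, and 29 and 6 without line B + NK replicate 1. The lower count was also 21 without line B alone replicate 2, 6 without line A + NK replicate 3 and 4 without line B + NK replicate 2.

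The surplus of gains depended in part on the fold threshold, as given above, and on scaling. With a loess offset on abundance 2600 peaks were gained and 1453 lost, so that gains were 64.2% of calls, against 76.8% with TMM scaling. The Pcdh19 peak then had a log2 fold change of 2.41 in place of 3.64, Aco1 2.29 in place of 3.58 and Gm49662 2.26 in place of 3.49.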

How the data were processed

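ATAC-seq libraries were taken from 12 samples of lines A and B at day 6. The authors deposited raw counts per consensus peak from featureCounts 2.0.1 (minimum fraction of overlap 0.2), after alignment to GRCm38 with STAR, duplicate marking with Picard 2.27.4 and broad peak calling with MACS2 2.2.7.1, per the processing notes and the study's methods. The authors also deposited broad peaks of each library with −log10 q-values, the lowest of which was 1.00. Of the count columns, 54 were used and 71 were not. Starts were made 1-based, and TSSs came from GENCODE M21.

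Peaks entered a test if a broad peak was called there in all 3 libraries of at least 1 group and the counts passed edgeR's filter. edgeR 4.0.16 (R 4.3.3) fitted quasi-likelihood models with TMM scaling and a term for cell line. Calls needed a Benjamini-Hochberg adjusted p of at most 0.05 and a log2 fold change of at least 0.58 in size. Differences between days and line pairs were contrasts within joint fits. DESeq2 1.42.0 and loess offsets (limma 3.58.1) were alternatives, as were other filters, single lines and leaving out libraries; the GC offset and leaving out replicate 1 of every group were chosen after seeing the data. The scripts were tested on simulated data. Total counts per library, 5076793 to 11185437, limit precision at weak peaks. Libraries within a group differed by more than counting noise, and none was a duplicate.

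Named were the 14 largest gains and 10 largest losses, and the 8 largest of each at promoters, among called peaks with a mean of at least 2 CPM whose arms did not overlap in either line; up to 6 called promoter peaks of each of 24 gene lists; 4 differences in each direction; the 6 longest runs of gains; and a fixed set of genes where tested. The libraries, 659 list entries and genes were chosen with earlier results of these data known. Serpina3g and Ctla4 were not tested, Ctla4 because no group had a broad peak in all 3 libraries. Some items are not reported here.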

Additional observations from a re-analysis of the deposited data

Results flagged for a closer look

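The results in this part were picked out because the effect of NK cells differed, by a test of the difference itself, between day 6 and day 4 or between line pairs. All values are differences in log2 fold change, called at an adjusted p of at most 0.05 in edgeR's quasi-likelihood test and a difference of at least 0.58 in size.

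Day 6 was higher than day 4 at 288 peaks and lower at 486. Higher at day 6 were the peaks nearest Gm43803 (1.77), Ighv1-62-2 (1.58), Dtnbp1 (1.45) and Gm8579 (1.43). In that order they lay 117, 29.3, 132 and 87.5 kb from a TSS, and each had a negative log2 fold change at day 4. Among peaks already named, those of the DNA sensor gene Ifi214 (0.60) and the lysozyme gene Lyz2 (0.70) were also higher. Lower were the peaks nearest 9930111J21Rik1 (-1.49), Hykk (-1.39), Gm4279 (-1.37) and Gpa33 (-1.33). The 9930111J21Rik1 peak was gained on both days, with a log2 fold change of 1.07 at day 6 and 2.55 at day 4. Lost peaks that lay lower at day 6 were Nfe2l1 (-0.92), Rtl6 (-0.60), Slc22a20 (-0.81), Gm29538 (-0.77), Wnt10a (-0.90) and Cda (-0.93). The part of experiment in these differences cannot be told apart from that of day.

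A and B were higher than C and D at 51 peaks and lower at 10, all of which lost the call with a replicate block. Higher were the peaks nearest Gm49048 (3.01, at 658 kb), Elovl4 (2.33), Gm49662 (2.33), Slc8a1 (2.29), Gm8369 (1.71) and Phf11a (1.34). Lower were the peaks nearest Gm29538 (-1.13), Tmc7 (-1.11), Cfap46 (-1.04) and Gm42939 (-0.94).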

How the results depend on the processing

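Gains and losses, 3484 and 1052, were 6049 and 2007 with no broad peak required, 885 and 319 with one in every library, 356 and 170 among promoter peaks fitted apart, and 977 and 219 in line B. Leaving out single libraries gave 2958 to 3970 gains and 826 to 1378 losses. The loess offset on abundance moved gains from 76.8% to 64.2% of calls, and promoter peaks fitted apart gave 67.7%. Day differences, 288 higher and 486 lower, were 930 and 977 with no broad peak required, 79 and 37 with one in every library, 45 and 168 at promoters, and 175 higher with the GC offset. Leaving out single libraries gave 178 to 514 and 199 to 955, and without replicate 1 of all 4 groups they were 1393 and 2493. Line pair differences, 51 and 10, were 178 and 59 with DESeq2, 9 and 1 with no broad peak required, 1 and 3 with one in every library, 0 and 0 at promoters, and 99 and 25 with the GC offset, and 10 to 75 and 1 to 21 without single libraries. The difference between lines A and B stayed at 0 in every fit run. The excess in depth with NK cells, a log2 ratio of 0.19, was 0.065 to 0.31 without single libraries and 0.23 in broad peaks. The cause of these shifts was not tested.

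Libraries of the same line and replicate number did not deviate alike across arms. Every correlation of their deviations from the group means was negative (-0.38 to -0.09). Replicate 1 lay furthest out in all 4 groups on the first principal component, lowest alone and highest with NK cells. The replicate number may thus still mark a shared difference, whose source was not tested. With a replicate block there were 3006 gains and 981 losses, 231 and 440 day differences, and 0 and 0 line pair differences.

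Of 74 called named peaks 52 kept the call under every alternative in which they were tested, 22 lost it at least once (Zfp683, Ifi211, H2-Aa and Spib most often) and 0 reversed. Uncalled promoters crossed zero. Irf1, at 0.00, was -0.00608 with DESeq2, -0.00609 with RLE scaling, -0.01004 with the replicate block, -0.00891 in line A and between -0.0484 and 0.0627 without single libraries. H2-K1 was 0.0111 with the loess offset and 0.0362 without replicate 1 of all 4 groups, and between -0.114 and -0.0169 without single libraries. Of 1200 list values under alternatives 1121 stayed within their margin and 79 moved. Over the alternatives the IRG list had 1 to 7 gained promoter peaks (median log2 fold change 0.29 to 1.15). The Ms4a list had 0 to 5 (1.43 to 2.45).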

Other observations

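Distal peaks, taken to the nearest gene, gave a further view of the gene lists, beside 11.4% gained and 2.97% lost over all distal peaks. Of 21 distal peaks at IRG genes 13 were gained and 1 was lost (median log2 fold change 0.97), and of 18 at GBP genes 15 were gained and 0 lost (0.97). The interferon signalling genes, with 1 of 25 promoter peaks gained, had 6 of 63 distal peaks gained (0.03). Of 20 distal peaks at MHC class II genes 4 were gained (0.02). The TNF and NF-κB genes had 9 gains and 1 loss among 80 (0.10), the checkpoint ligands 7 gains among 48 (0.12), and the AP-1 and stress genes 0 gains and 2 losses among 46 (-0.12).

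The AP-1-type motif TGANTCA was found in the central 500 bases of 20.4% of gained, 13.5% of lost and 13.4% of tested peaks, and the E-box CAGCTG in 26.6%, 36.8% and 29.0%. These shares were not split by GC content. Gained peaks took up unequal shares of the chromosomes, from 4.53% of tested peaks on chromosome 11 to 12.9% on chromosome 3 among the autosomes.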
